A study of Mus musculus with 8 samples.

Results

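The genes described here are 8 interferon-induced genes, namely the Ifit genes Ifit1, Ifit2, Ifit3 and I830012O16Rik (a paralog of Ifit3, also called Ifit3b), with Ifi44, Ifitm2, Ifitm3 and Ifi35. They were chosen by name from the 20308 gene symbols measured, and all 8 were among the 13407 genes that passed the filter on low counts. RNA was sequenced from CD11b+ cells, mostly microglia, pulled down with magnetic beads from the right brain hemisphere of 4 control and 4 CSF1 OE mice. All mice were F1 animals of C57Bl/6 and CD1 aged p14 or p15, and CSF1 OE mice overexpress the secreted form of the growth factor CSF1 in a subset of GFAP+ cells through the TRE/tTA system. The labels name the other mice only as controls for CSF1 over-expression, so which transgenes, if any, the controls carry is not known here.

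Type I interferons bind a cell surface receptor and activate transcription factors that bind the interferon-stimulated response element in the promoters of many genes. The Ifit proteins bind foreign RNA in the cytoplasm and block its translation, and their genes are among those that respond most to interferon. The Ifitm proteins sit in membranes of the cell surface and endosomes and hinder the entry of viruses. Ifi44 and Ifi35 are induced by interferon as well, and Ifi35 forms a complex with Nmi. Microglia, the resident macrophages of the brain, are known to express such genes at a low level without infection and at a higher level when exposed to interferon.

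The libraries held between 12053280 and 15475488 counts, with 1 library per mouse. Microglial markers dominated every library, with the summed level of 10 marker genes at 22880 to 40010 CPM (counts scaled to the library total, with TMM scaling factors) in control mice and 29620 to 41100 CPM in CSF1 OE mice. None of the 10 was called by edgeR, and DESeq2 called 1 higher and 1 lower. At an unadjusted p under 0.05, Aif1 was higher (log2 fold change 0.60 ± 0.15, adjusted p = 0.0971 by edgeR), where 10.1% of all genes were higher. Fcrls was lower at that p (-0.63 ± 0.19, adjusted p = 0.168). Of 8 T and NK cell genes, which summed to 12.4 to 19.8 CPM in the controls and 9.27 to 14.4 CPM in the CSF1 OE group, Cd3e, Cd3g, Ncr1, Nkg7 and Gzma had 0 to 2 counts per library and Cd8a 3 to 5. Klrb1c had 4.3 to 9 counts per control library and 11 to 25 per CSF1 OE library (log2 fold change 1.53 ± 0.42, adjusted p = 0.134 by edgeR), and Cd4, which macrophages can also express, had -0.75 ± 0.20 (adjusted p = 0.125). Endothelial markers summed to 717 to 1208 CPM in control mice and 344.5 to 839.9 CPM in the CSF1 OE group, and all 8 were lower in the CSF1 OE mice by their fitted values, with none called by edgeR, 3 at an unadjusted p under 0.05 and 1 called by DESeq2. All 7 border macrophage markers were also lower by their fitted values, again with none called, 5 at an unadjusted p under 0.05 and 1 called by DESeq2, and summed to 1557 to 2477 CPM and 1252 to 1871 CPM. The shares of all genes that were lower by these measures are not given here. The endothelial and border macrophage counts therefore have no background beside them. Red blood cell genes summed to 251.8 to 936.1 CPM in the controls and 39.0 to 434.7 CPM in the CSF1 OE group, with all 5 tested lower by fitted value (median log2 fold change -1.58) and none called or at an unadjusted p under 0.05. Oligodendrocyte markers summed to 2819 to 5924 CPM and 1542 to 4835 CPM, with 5 of 6 lower by fitted value and again none called or at an unadjusted p under 0.05, and DESeq2 called no gene of either list. The part of these cell types in the levels below was not tested. In bulk RNA, fewer cells of a type and less RNA per cell cannot be told apart. Csf1 itself averaged 282.5 CPM in the controls and 322.1 CPM in the CSF1 OE group (log2 fold change 0.19 ± 0.33 SE, adjusted p = 0.796 by edgeR), which is no clear check of the labels, because the transgene is driven in GFAP+ cells while CD11b+ cells were enriched. Astrocyte markers were measured as well, at sums of 347.5 to 642 CPM in the controls and 293.4 to 664.9 CPM in the CSF1 OE group. Its receptor Csf1r had a log2 fold change of 0.05 ± 0.21.

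The 4 Ifit genes each had a higher level in every CSF1 OE mouse than in any control mouse, with fitted differences of 3.61- to 4.23-fold. Ifit1 and I830012O16Rik were called higher by edgeR's quasi-likelihood test, where a call needed a Benjamini-Hochberg adjusted p under 0.05 over all genes tested and a fold change under 0.7 or over the inverse of 0.7. Ifi44 differed by a larger factor, 6.18-fold, without passing the threshold. Neither Ifitm gene differed beyond its spread, and Ifi35, with a smaller difference than the Ifit genes, was not called. In all, 2 of the 8 genes were called higher and 0 lower, where 0.388% of all genes tested were called higher and 0.0522% lower. At an unadjusted p under 0.05, 6 of the 8 were higher and 0 lower (10.1% of all genes were higher), and DESeq2 called 5 of the 8 higher and 0 lower (2.04% of the genes it could adjust were called higher). The genotypes did not overlap for 6 of the 8 genes, all with the higher values in CSF1 OE mice, against 6.84% of all genes tested. The median log2 fold change was 1.92 over the 8 genes and -0.03 over all genes tested.

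**Figure D1:**
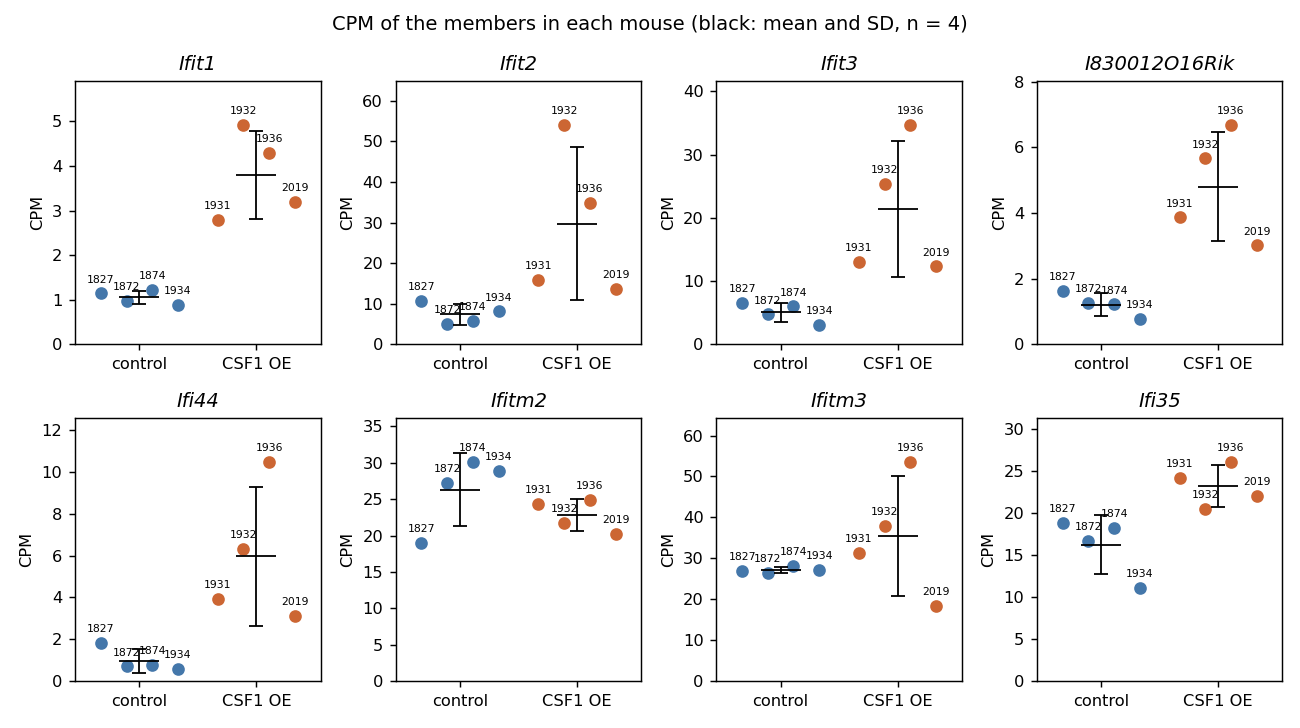
Level of each gene in each mouse, in CPM on a linear axis that starts at 0; points are mice with their animal numbers, and black marks give the mean and SD of 4 mice. The 4 Ifit genes, Ifi44 and Ifi35 do not overlap between the genotypes, whereas Ifitm2 and Ifitm3 do, and CSF1 OE mice 1932 and 1936 hold the highest values of the 4 Ifit genes and Ifi44.

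The 4 Ifit genes lie near each other on chromosome 19, all on the plus strand. In the mm10 annotation Ifit2 spans chr19:34550694-34576419, Ifit3 chr19:34583531-34588731, I830012O16Rik chr19:34607970-34613401 and Ifit1 chr19:34640871-34650009. Ifit1, Ifit3 and I830012O16Rik each have 2 exons, and the coding transcripts of Ifit2 have 3 or 4. RSEM counts reads over the exons of a gene as a whole, so no value here belongs to a single exon.

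Ifit1, which recognises viral RNA by its unusual cap structure, was measured at 1.14, 0.968, 1.21 and 0.887 CPM in control mice 1827, 1872, 1874 and 1934. In CSF1 OE mice 1931, 1932, 1936 and 2019 it was measured at 2.79, 4.92, 4.29 and 3.19 CPM. The control mice lay close together (coefficient of variation 14.2%), and the lowest CSF1 OE mouse was above all of them. The controls averaged 1.05 ± 0.15 CPM (SD, n = 4) and the CSF1 OE mice 3.80 ± 0.98 CPM, which gave a log2 fold change of 1.85 ± 0.27 (SE, adjusted p = 0.0398 by edgeR). These values rest on 14 to 17 counts per control library and 33.78 to 67.33 counts per CSF1 OE library. The call was lost with upper-quartile scaling (adjusted p = 0.053) and when any 1 of the other 6 mice was left out, with an adjusted p of up to 0.174, but not without control mouse 1827 or without CSF1 OE mouse 2019.

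Ifit2, which also binds RNA and inhibits translation, was measured at 10.8, 5.05, 5.67 and 8.10 CPM in control mice 1827, 1872, 1874 and 1934, and at 15.9, 54.1, 34.9 and 13.7 CPM in CSF1 OE mice 1931, 1932, 1936 and 2019. Levels in the CSF1 OE mice differed 3.94-fold among themselves, and mouse 2019 was only a little above control mouse 1827. The log2 fold change of 2.003 ± 0.457 was not called (adjusted p = 0.0842 by edgeR).

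Ifit3, whose human counterpart binds IFIT1 and strengthens its hold on RNA, was measured at 6.52, 4.70, 5.97 and 3.08 CPM in the control mice, in the order above. The CSF1 OE mice had 12.98, 25.35, 34.69 and 12.3 CPM. Here too mice 1932 and 1936 were well above mice 1931 and 2019, and all 4 were above the controls. The log2 fold change of 2.08 ± 0.38 missed the threshold (adjusted p = 0.0558 by edgeR), a value that 76 genes shared because of the way adjusted values are ranked.

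I830012O16Rik was measured at 1.61, 1.25, 1.21 and 0.769 CPM in the control mice and at 3.86, 5.66, 6.68 and 3.01 CPM in the CSF1 OE mice. The order of the CSF1 OE mice was close to that of Ifit3, with mouse 1936 highest and mouse 2019 lowest in both. Its log2 fold change of 1.99 ± 0.34 was just inside the threshold (adjusted p = 0.0499 by edgeR). This call was lost without any 1 of the same 6 mice, with upper-quartile scaling (adjusted p = 0.0552), without the filter on low counts (adjusted p = 0.0521) and with a robust prior (adjusted p = 0.053).

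Ifit3 and I830012O16Rik are near-identical copies in part, so their split of reads is uncertain. Of 1646 windows of 100 bases in the transcript of Ifit3, 521 (31.7%) also occur in that of I830012O16Rik, and the counts of both genes were not whole numbers in 7 of 8 libraries, the mark of reads divided by RSEM. The other members share less, as 84 windows of Ifit1 (3.29%) occur in its paralog 2010002M12Rik and 0 windows of Ifitm2 in Ifitm3. Added together, Ifit3 and I830012O16Rik amounted to 3.84 to 8.13 CPM in control mice and 15.3 to 41.4 CPM in CSF1 OE mice, without overlap. Counted as 1 gene, they had a log2 fold change of 2.06 ± 0.36 and were not called (adjusted p = 0.0524 by edgeR).

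The ratio of Ifit3 to I830012O16Rik within a library did not separate the genotypes. It was 4.04, 3.78, 4.94 and 4.00 in the control mice and 3.36, 4.48, 5.19 and 4.09 in the CSF1 OE mice. The mean log2 ratios of the genotypes were 0.02 apart (exact permutation test, two-sided, over 70 assignments, p = 0.914, adjusted over 3 ratios 0.914). Since the shared reads are divided by RSEM, this ratio is partly an estimate of the counting model.

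The promoters of these genes were searched for the core of the interferon-stimulated response element, read as GAAA, any 2 bases and GAAA again, on both strands. The windows ran from 250 bases before to 50 after the transcription start given by RefSeq (mm10). Of 32851 such windows of all genes, 3.44% held a match, and the core of the gamma-activated sequence, TTC and GAA with any 3 bases between, was in 8.3%. Ifit1, Ifit3 and I830012O16Rik each held 2 matches to the first motif and none to the second. They are shown because these 3 genes moved most alike over the 8 mice. Capitals mark the matches, which on this strand read as the reverse complement.
Ifit1: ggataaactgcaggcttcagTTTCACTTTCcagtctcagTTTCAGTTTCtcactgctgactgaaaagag
Ifit3: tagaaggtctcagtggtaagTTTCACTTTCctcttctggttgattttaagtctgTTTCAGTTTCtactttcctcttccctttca
I830012O16Rik: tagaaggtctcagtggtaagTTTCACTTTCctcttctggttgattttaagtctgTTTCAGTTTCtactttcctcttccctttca
The stretch of Ifit1 lies at chr19:34640765-34640833, from 124 to 56 bases before the start. Those of Ifit3 (chr19:34583353-34583436) and I830012O16Rik (chr19:34607749-34607832) are identical over all 84 bases, and the longest run that the windows of the pair share is 169 bases. Both windows of Ifit2 held 0 matches to the first motif, and 1 of them held 1 match to the second. That says only that these letters are not in these windows. A match is a description of letters, not a bound site.

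Ifi44, a cytoplasmic protein induced by interferon, lies apart from the Ifit genes at chr3:151730922-151749960 on the minus strand, with 8 exons. It was measured at 1.81, 0.692, 0.756 and 0.591 CPM in control mice 1827, 1872, 1874 and 1934. The CSF1 OE mice 1931, 1932, 1936 and 2019 had 3.94, 6.32, 10.5 and 3.10 CPM. Control mouse 1827 stood apart from the other controls and was still below every CSF1 OE mouse. The log2 fold change of 2.63 ± 0.50 ranked 3 among all genes tested by size, yet it was not called (adjusted p = 0.0558 by edgeR), on 10 to 27 counts per control library. Without control mouse 1827 it was 3.13 ± 0.50 and was called (adjusted p = 0.0427). With any 1 of the other mice left out, Ifi44 was not called (adjusted p from 0.0507 to 0.186 by edgeR). Its relative Ifi44l was at 0 in all 8 libraries.

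No match to the response element was in the window of Ifi44, in which a form with 1 base between the repeats was found after the sequence had been seen. That form is in 3.17% of all windows, and is in capitals here, at chr3:151749940-151749968 on the minus strand.
Ifi44: gagtttcagtTTTCGTTTCccgagcagga

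Ifitm2 and Ifitm3 lie on the minus strand of chromosome 7, at chr7:140954837-140955987 and chr7:141009586-141010770, with 2 exons each. Their proteins restrict the entry of enveloped viruses, and Ifitm3 acts mainly in endosomes. Ifitm2 was measured at 19.0, 27.2, 30.2 and 28.9 CPM in the control mice and at 24.4, 21.7, 24.9 and 20.3 CPM in the CSF1 OE mice. The CSF1 OE mice all lay within the range of the controls. The log2 fold change was -0.21 ± 0.15 (adjusted p = 0.532 by edgeR).

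Ifitm3 was measured at 26.9, 26.4, 28.2 and 27.2 CPM in the control mice, a spread of only 2.78%. In the CSF1 OE mice it was measured at 31.4, 38.0, 53.6 and 18.4 CPM. Mice 1931, 1932 and 1936 were above every control and mouse 2019 was below every control. The log2 fold change was 0.38 ± 0.27 (adjusted p = 0.501 by edgeR), and without mouse 2019 it was 0.60 ± 0.17, also not called (adjusted p = 0.147). Mouse 2019 had the lowest summed endothelial markers of the 8 mice, 344.5 CPM. It also had the lowest sums of mural cell, astrocyte, oligodendrocyte, oligodendrocyte precursor, neuron, red blood cell and monocyte markers. Most of its monocyte sum of 251.4 CPM came from Fn1 (213.1 CPM), which with Vcan (9.47 CPM) was lowest in this mouse. Ccr2 (12.13 CPM) and Ly6c2 (1.68 CPM) were instead higher in it than in the other CSF1 OE mice, and Plac8 (14.96 CPM) was in between. The sums of mouse 2019 were the highest for microglial (41100 CPM) and plasmacytoid dendritic cell markers (1252 CPM). The latter sum was mostly Siglech (1043 CPM) and Tcf4 (161.7 CPM), with Spib at 0.0885 CPM and Klk1 at 0 in all 8 mice. It therefore rests on few of the genes listed. Neutrophil markers were also highest in mouse 2019, at 230.2 CPM against 16.01 to 103.8 CPM in the other mice. Its border macrophage and T and NK cell sums were neither lowest nor highest. The part of these cell types in the level of Ifitm3 was not tested.

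The Ifitm genes named next, 5 of the family, were also added together, leaving out Ifitm5 and Ifitm10. Ifitm1, Ifitm2, Ifitm3, Ifitm6 and Ifitm7 summed to 48.6 to 62.2 CPM in control and to 42.1 to 81.4 CPM in CSF1 OE libraries, and as 1 gene they had a log2 fold change of 0.09 ± 0.18 (adjusted p = 0.826 by edgeR). The ratio of Ifitm2 to Ifitm3 was 0.707 to 1.07 in control and 0.464 to 1.10 in CSF1 OE libraries. The mean log2 ratio was lower in the latter, with a difference of -0.47 (exact permutation test, two-sided, p = 0.257, adjusted 0.386).

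The promoter windows of both Ifitm genes held matches to the core of the response element, which 3.44% of all windows hold. There was 1 match in Ifitm2 and 2 in Ifitm3, where both lie after the start and begin at bases 3 and 20 from it. The window of Ifitm3 also held 1 match to the gamma-activated sequence, at base 14, and that of Ifitm2 held 0. They are shown because these genes carry the letters found in the Ifit genes and did not differ between the genotypes beyond their spread. The stretches lie at chr7:140955988-140956017 and chr7:141010715-141010743 on the minus strand.
Ifitm2: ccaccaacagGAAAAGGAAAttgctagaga
Ifitm3: gGAAAAGGAAActtctgaGAAACCGAAAc

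Ifi35, the partner of Nmi, lies at chr11:101448407-101458698 on the plus strand, with 7 exons. It was measured at 18.9, 16.7, 18.2 and 11.1 CPM in control mice and at 24.23, 20.57, 26.17 and 22.04 CPM in CSF1 OE mice. The genotypes did not overlap, although the gap between control mouse 1827 and CSF1 OE mouse 1932 was smaller than the spread within either group. The log2 fold change of 0.52 ± 0.17 was not called (adjusted p = 0.195 by edgeR). Nmi had a log2 fold change of 0.28 ± 0.13 (adjusted p = 0.339). The window of Ifi35 held 0 matches to the response element, 1 to its form with 1 base between the repeats and 1 to the gamma-activated sequence. The former is in capitals, at chr11:101448415-101448443 on the plus strand.
Ifi35: agaattcacaGAAATGAAAgtggaagtga

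**Figure D2:**
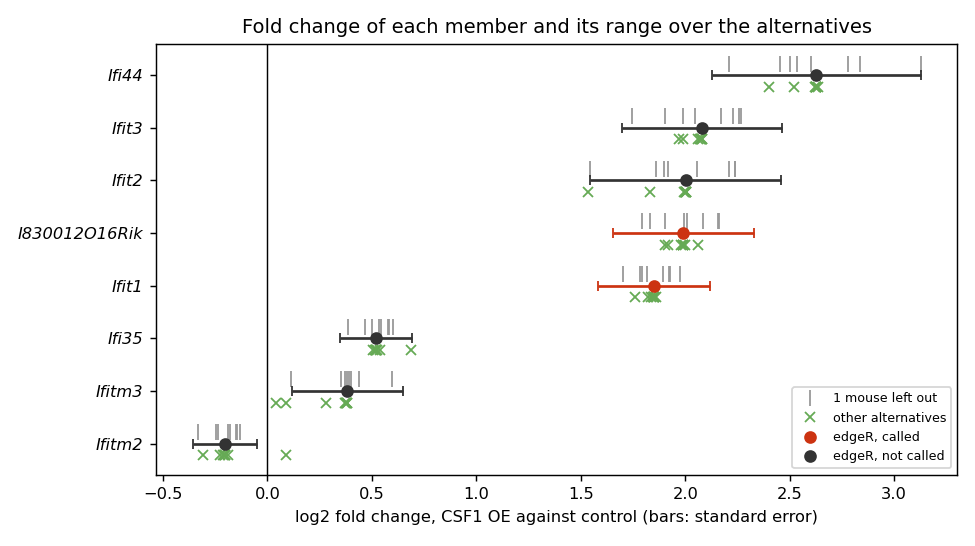
Log2 fold change of CSF1 OE against control for each gene, with the standard error as a bar; grey ticks are fits without 1 mouse and green crosses are the other alternatives. Ifi44 and the 4 Ifit genes stay between 1.53 and 3.13 in every fit, whereas the values drawn for Ifitm2 lie between -0.33 and 0.09. Its only value above 0 is that of several Ifitm genes merged, not of Ifitm2 alone.

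The changes of Ifit3 and Ifitm3 were compared directly within each library. The ratio of Ifit3 to Ifitm3 was 0.242, 0.178, 0.212 and 0.113 in the control mice and 0.414, 0.667, 0.647 and 0.668 in the CSF1 OE mice, without overlap. The mean log2 ratio differed by 1.71, a 3.28-fold higher ratio in CSF1 OE mice (exact permutation test, two-sided, p = 0.0286, the smallest that 4 mice against 4 allow, and 0.0857 adjusted over 3 ratios). The adjusted value therefore did not pass 0.05.

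Per length of transcript, the order of the levels was led by the Ifitm genes in both genotypes. In control mice, Ifitm2 at 40.2 ± 7.65 and Ifitm3 at 40.1 ± 1.11 CPM per kb overlapped, and both were above Ifi35 at 11.9 ± 2.59. Ifit3 at 2.90 ± 0.88 and Ifit2 at 1.88 ± 0.66 CPM per kb followed and overlapped each other. I830012O16Rik (0.604), Ifit1 (0.396) and Ifi44 (0.331 CPM per kb) were lowest, and each overlapped the next. In CSF1 OE mice, Ifitm3 at 52.1 ± 21.6 CPM per kb led and overlapped Ifitm2 at 34.8 ± 3.36. Ifi35 at 17.1 ± 1.80 overlapped Ifit3 at 12.2 ± 6.15, which overlapped Ifit2 at 7.55 ± 4.80 CPM per kb. Ifi35 and Ifit3, apart in control mice, were thus no longer separated. Ifitm2 did not overlap Ifi35 (lowest 30.9 against highest 19.2 CPM per kb). Nor did Ifit2 overlap I830012O16Rik (lowest 3.49 against highest 3.34 CPM per kb). I830012O16Rik, Ifi44 and Ifit1 were again lowest, at means of 2.40 and 2.05 CPM per kb for the former pair and a range of 1.05 to 1.85 CPM per kb for Ifit1, and each overlapped the next.

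The 8 genes also differed in how they varied among mice of 1 genotype. The summed level of the 4 Ifit genes was 20.02, 11.97, 14.06 and 12.83 CPM in the control mice and 35.56, 90.01, 80.56 and 32.22 CPM in the CSF1 OE mice. CSF1 OE mice 1932 and 1936 were thus more than 2 times as high as mice 1931 and 2019, while the controls varied less. As a description over the 8 libraries, each gene's log2 CPM was centred on its mean and set against the mean profile of the 4 Ifit genes, to which those genes themselves contribute. I830012O16Rik, Ifit3 and Ifit1 differed from it by a root mean square of 0.167, 0.211 and 0.220 on the log2 scale. Ifit2 (0.348) and Ifi44 (0.446) were farther from it, and Ifi35 (0.770), Ifitm3 (0.836) and Ifitm2 (1.14) were farther still, where the median of all genes tested was 1.06. The genotype difference itself makes up much of this profile, so likeness in it is partly likeness in fold change.

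**Figure D3:**
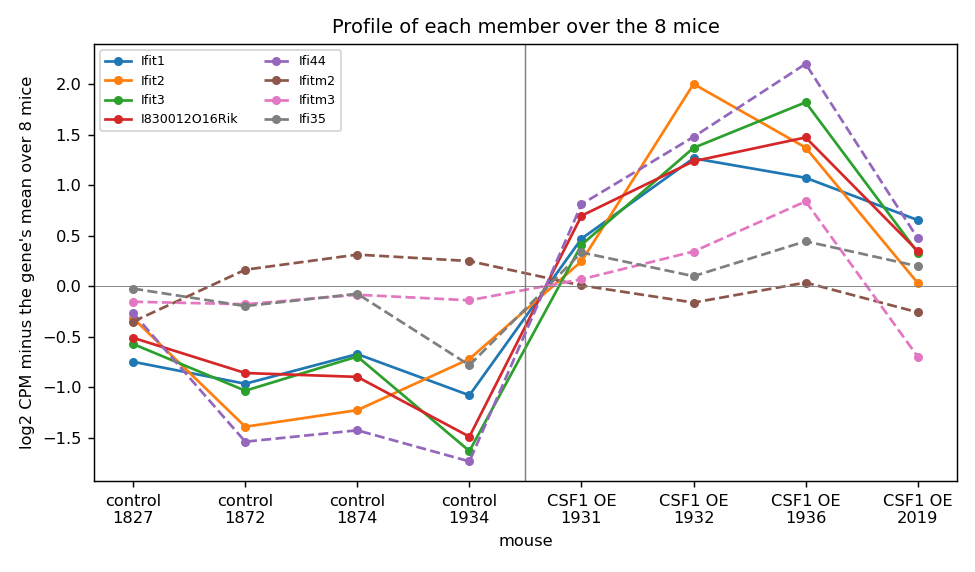
Log2 CPM of each gene minus its mean over the 8 mice, by mouse, with controls left of the grey line; solid lines are Ifit genes and dashed lines the others. Ifi44 follows the Ifit genes, with a highest value of 2.20 in CSF1 OE mouse 1936, whereas Ifitm2 stays between -0.35 and 0.31.

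The genes outside the 8 with the profile nearest to the mean Ifit profile were Rtp4 (root mean square difference 0.228), Phf11b (0.252), Irf7 (0.259), Zbp1 (0.271) and Plac8 (0.278). Irf7 is the transcription factor that amplifies the type I interferon response, Zbp1 senses nucleic acids of unusual form, and Plac8 is also on the list of monocyte markers. Of the 5 monocyte markers tested, Plac8 was the only 1 higher by fitted value and 4 were lower, with a median log2 fold change of -0.575. Rtp4 was measured at 3.55 to 7.59 CPM in control and 11.5 to 29.5 CPM in the CSF1 OE mice, and Irf7 at 3.74 to 8.60 and 13.1 to 37.4 CPM. Like Ifi44, both had their highest value in mouse 1936 and their highest control value in mouse 1827. Of the 5 genes with the nearest profile only Zbp1 was called (log2 fold change 2.06 ± 0.28, adjusted p = 0.0365 by edgeR).

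The animal numbers fall into a range from 1931 to 1936, with 1 control and 3 CSF1 OE mice, and the other 4, with 3 control and 1 CSF1 OE mice. The labels do not say what the range stands for. Within the range, the log2 ratio of the mean levels was 2.17 for Ifit1, 2.11 for Ifit2, 2.98 for Ifit3, 2.81 for I830012O16Rik and 3.55 for Ifi44. Among the other mice it was 1.53, 0.94, 1.10, 1.15 and 1.51 in the same order, lower for each gene and of the same sign. Ifi35 had 1.09 and 0.30. Ifitm2 had -0.29 and -0.33, and Ifitm3 changed sign, with 0.60 within the range and -0.56 outside it. With 1 mouse on one side of each of these contrasts, they have no test. In a fit over all 8 mice with a term for the range, 1273 genes were called, 302 of them higher, and 5 of the 8 genes were called higher. These were Ifit1, I830012O16Rik, and 3 not called without the term, namely Ifit3 (log2 fold change 1.99 ± 0.50, adjusted p = 0.0376 by edgeR), Ifi44 (2.40 ± 0.62, adjusted p = 0.041) and Ifi35 (0.69 ± 0.19, adjusted p = 0.0482).

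Other genes of the interferon pathway were read from the same fit, and their counts are given beside the shares of all genes tested. Of 11 interferon ligands none passed the filter on low counts, and 8 had 0 counts in every library. Ifnb1, the gene of interferon beta, had 0 to 5 counts per control library and 1 to 8 per CSF1 OE library. Of 6 receptor genes 5 were tested and none was called or had an unadjusted p under 0.05 by edgeR, nor was any called by DESeq2, and their median log2 fold change was -0.01. Ifngr2, a chain of the interferon gamma receptor, had the lowest p among them, with a log2 fold change of 0.19 ± 0.15.

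Of the 10 signal transducers, which include the JAK kinases and the IRF factors, none was called by edgeR, 5 were higher at an unadjusted p under 0.05 (10.1% of all genes), and DESeq2 called 3 higher (2.04% of all genes it could adjust). Their median log2 fold change was 0.19. Irf7 had the lowest p (means of 5.69 and 22.1 CPM in control and CSF1 OE mice, log2 fold change 1.96 ± 0.38, adjusted p = 0.0558 by edgeR). Of 6 negative regulators none was called by edgeR and 1 was higher at an unadjusted p under 0.05 (10.1% of all genes). DESeq2 called 1 of them higher (2.04% of all genes it could adjust). Usp18, the protease that removes ISG15 and dampens the receptor, had a log2 fold change of 2.08 ± 0.40 (adjusted p = 0.0558).

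Of 8 RNA sensors and their adaptors 2 were called higher (0.388% of all genes) and 0 lower, and 4 were higher at an unadjusted p under 0.05 (10.1% of all genes). Dhx58, a helicase related to the RIG-I receptor, rose from 7.59 to 20.7 CPM (log2 fold change 1.45 ± 0.20, adjusted p = 0.0365 by edgeR), beside Zbp1. Of 26 other interferon-induced effector genes tested 2 were called higher and 0 lower, while 24 were higher at an unadjusted p under 0.05 and DESeq2 called 16 higher and 0 lower, beside the same shares of all genes (0.388%, 10.1% and 2.04% higher). All 26 had higher fitted values in CSF1 OE mice, with a median log2 fold change of 0.86. The called genes were Isg15, a ubiquitin-like modifier (1.85 ± 0.29, adjusted p = 0.0431 by edgeR), and Eif2ak2, the kinase that halts translation on sensing double-stranded RNA (0.91 ± 0.14, adjusted p = 0.0431).

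The other genes of the Ifit, Ifi44 and Ifitm families, listed with Nmi, the partner of Ifi35, gave no call. Of 11 names 9 were found. The names not found, Ifit1bl1 and Ifit1bl2, are other names of Gm14446 and 2010002M12Rik, which were. The filter was passed by 4, namely Ifitm1, Ifitm6, Ifitm10 and Nmi, with a median log2 fold change of -0.15. None was at an unadjusted p under 0.05 by edgeR or called by DESeq2. Gm14446, a relative of Ifit1, had 2 to 6 counts per control library and 3 to 24 per CSF1 OE library, and 2010002M12Rik had 1 to 5 and 4 to 11.98 counts, so a difference in either could not be tested at this depth.

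**Figure D4:**
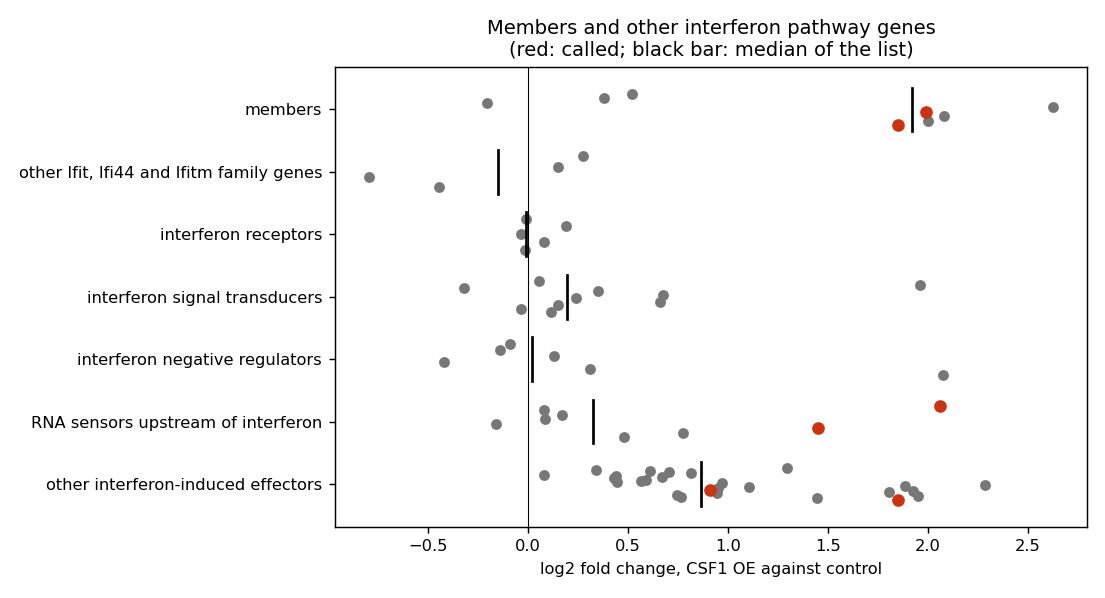
Log2 fold change of CSF1 OE against control for the 8 genes and for the tested genes of 6 lists of other interferon pathway genes; each point is a gene, red points were called by edgeR, and the black bar is the median of the list. The median is 1.92 for the 8 genes, 0.86 for the other effectors and -0.01 for the receptors, and no list holds a gene called lower.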

How the data were processed

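RNA-seq libraries of 4 control and 4 CSF1 OE mice were used, grouped by the labels. The authors mapped paired reads with Bowtie 1.0.0 to mm10 and estimated expression with RSEM 1.2.7, which divides reads that fit several genes, and deposited expected counts per gene symbol. A second deposited table holds signal values, which are the same expected counts divided by 1 size factor per mouse. The annotation and strand setting are not given in the sources used here. No column was left unmapped.

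Expected counts were rounded and fitted over all 13407 genes kept by filterByExpr with edgeR 4.0.16 in R 4.3.3 (TMM, glmQLFit, glmQLFTest). Standard errors are the log2 fold change over the root of F. A floor of 3 counts equals 0.194 to 0.249 CPM by library total, before TMM scaling, and covers counting error alone. Scripts were tested on simulated data. Alternatives used DESeq2 1.42.0, limma 3.58.1 (pseudocount 1), upper-quartile factors, a robust prior, other filters (none, or 10 or more counts per library), a term for animal numbers 1931 to 1936, merged paralogs, other thresholds, and each mouse left out. Profiles used log2(CPM + 0.1). Exons and transcripts came from GENCODE M21 and promoter windows from RefSeq, where all 8 genes matched (I830012O16Rik as Ifit3b). The search with 1 base between the repeats of the motif was added after the sequences had been seen.

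The 8 genes and the gene lists were chosen with earlier results of these data known. Of each pathway list the called genes were named or, with none called, the gene with the lowest p, and the 5 genes with the nearest profile. Other genes named were chosen after their values were seen. Nothing says that the libraries of a genotype came from separate litters, so p-values measure the spread between these mice.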

Additional observations from a re-analysis of the deposited data

Results flagged for a closer look

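Of 44 groups of 4 mice tested, 3 held a mouse whose gap to the nearest of the others was too large a share of its group's range by Dixon's 95% critical value, where chance gives about 1 in 20. The level of Ifi44 in control mouse 1827 was 1.814 CPM, against 0.591 to 0.756 CPM in the other control mice. The ratio of Ifit3 to Ifitm3 in CSF1 OE mouse 1931 was 0.4136, against 0.647 to 0.668 in the other CSF1 OE mice, and was still above every control. The ratio of Ifitm2 to Ifitm3 in control mouse 1827 was 0.7075, against 1.03 to 1.07 in the other control mice.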

How the results depend on the processing

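The number of genes called depended on the processing. In the fit reported, 59 genes were called, 88.1% of them higher, among them 2 of the 8 genes. DESeq2 called 414 genes (62.1% higher) and 5 of the 8, limma on the authors' values 104 and 4, and the term for animal numbers 1273 (23.7% higher) and 5. Upper-quartile factors gave 19 genes and 0 of the 8, and an adjusted p under 0.01 gave 3 and 0. No filter beyond any count and the robust prior each left 1 of the 8. With 1 mouse left out, between 3 and 164 genes and between 0 and 3 of the 8 were called; it was 3 without control mouse 1827 or without CSF1 OE mouse 2019, and 0 without each of the other 6. In each of these edgeR, DESeq2 and limma fits, at least 6 of the 8 were higher at an unadjusted p under 0.05. None was lower at that p except Ifitm2 in the fit without control mouse 1827 (log2 fold change -0.33 ± 0.11, adjusted p = 0.173 by edgeR). The cause of these shifts was not tested.

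Among the 16 alternatives of each gene, Ifit1 was called in 9, I830012O16Rik in 6, Ifit3 and Ifi44 in 4, Ifit2 and Ifi35 in 1, and Ifitm2 and Ifitm3 in 0. Over them the log2 fold change ran from 1.70 to 1.97 for Ifit1, from 1.53 to 2.24 for Ifit2 and from 0.04 to 0.60 for Ifitm3. Ifitm2 reversed, to 0.088, when 5 Ifitm genes were merged, which replaces its row by that of the 5 genes merged. The difference in the log2 ratio of Ifit3 to I830012O16Rik, 0.021 as reported, ran from -0.078 to 0.132 with 1 mouse left out and so changed sign. Depth limits Ifit1, I830012O16Rik and Ifi44 most, at 10 to 27 counts per control library. Protein sequences of the paralogs were not compared here, as planned at first. No paired analysis was possible because the labels give animal numbers and no replicate numbers shared by the genotypes.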
